A study of Sus scrofa domesticus with 6 samples.

Results

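Glycosaminoglycans are the sulfated sugar chains that give cartilage its swelling pressure, and the genes described here encode the enzymes and transporters that build and sulfate them. The members were found by name: a row of the deposited table belonged to the set when its gene name was one of a fixed list of these enzymes. The rule found 49 genes among the 25322 rows, and each name stood on 1 row. The tissue was the mandibular condyle, the cartilage-capped end of the mandible that meets the skull, in embryos of miniature pigs (Sus scrofa domesticus) at 45 or 85 days. RNA of 3 libraries per age was sequenced after removal of ribosomal RNA. No agent or genetic change is named for either age; the labels of all 6 libraries describe cartilage undergoing osteogenesis, with chondrocytes and osteocytes as its cells. They do not say whether each library came from its own animal, so the p-values take as error only how these libraries differ within an age, which may be technical.

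Chondroitin, dermatan and heparan sulfate chains start on a short linker of sugars attached to a serine of a core protein, are lengthened by polymerases that add sugars in alternation, and are then sulfated. The sulfate comes from PAPS, a carrier molecule made in the cytosol by the PAPS synthases. Chondroitin sulfate on aggrecan is the bulk of the chains in cartilage, and inherited loss of PAPSS2, CHST3, CHSY1, the linker enzymes or the sulfate transporter SLC26A2 causes skeletal dysplasia in people. Heparan sulfate on cell surfaces and basement membranes binds growth factors, and hyaluronan is an unsulfated chain made at the plasma membrane.

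Total counts ran from 12546729 to 16559616 per library. Levels are given as CPM, reads scaled to library size after TMM normalisation, when libraries are compared, and as the deposited FPKM, which also divides by a factor per gene for length, when genes are compared. Day 85 replicate 2 stood apart from the other day 85 libraries: on a second principal component with 26.6% of the variance it lay at 76.74, against -20.35 and -20.47 for replicates 1 and 3. Markers of chondrocytes (10 of 13 listed genes had a row, none at 0 in any library) summed to between 15233 and 19092 CPM at day 45 and to 1923, 6759 and 3646 CPM in day 85 replicates 1, 2 and 3. COL2A1, the main collagen of cartilage, ranged from 3733 to 4999 CPM at day 45, and those later libraries held 28.8, 1074 and 50.6 CPM, so this defining marker was low in replicates 1 and 3. Skeletal muscle markers (5 of 7 listed) summed to between 2920 and 6611 CPM at day 45 and to 23683, 1736 and 20818 CPM at day 85. Osteoclast markers (7 of 7, with OCSTAMP at 0 in at least 1 library) summed to between 284 and 1285 CPM at day 45 and to 1862, 13344 and 2285 CPM at day 85.

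The set was lower on balance at day 85. Of the 46 members that could be tested, 4 fell and 1 rose at an adjusted p under 0.05 over all genes. PAPSS2, UGDH, CHSY1 and CHST10 fell, and CHST15 rose. These are 8.70% of the tested members lower and 2.17% higher, beside 2.66% lower and 3.9% higher among all 15022 genes tested. The members' median log2 fold change, day 85 over day 45, was -0.30, with a range from -2.84 to 1.08, and the median over all genes tested was 0.02. In CPM, every day 85 library lay below every day 45 library in 14 members, and every one lay above in 4. These are 30.4% and 8.70% of the members, beside 17.6% and 17.4% of all genes tested. At an unadjusted p under 0.05, 16 members were lower (34.8%) and 4 higher (8.70%), beside 13.3% and 15.8% of all genes tested. In a bulk sample, fewer cells of a type and less RNA per cell cannot be told apart.

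**Figure D1:**
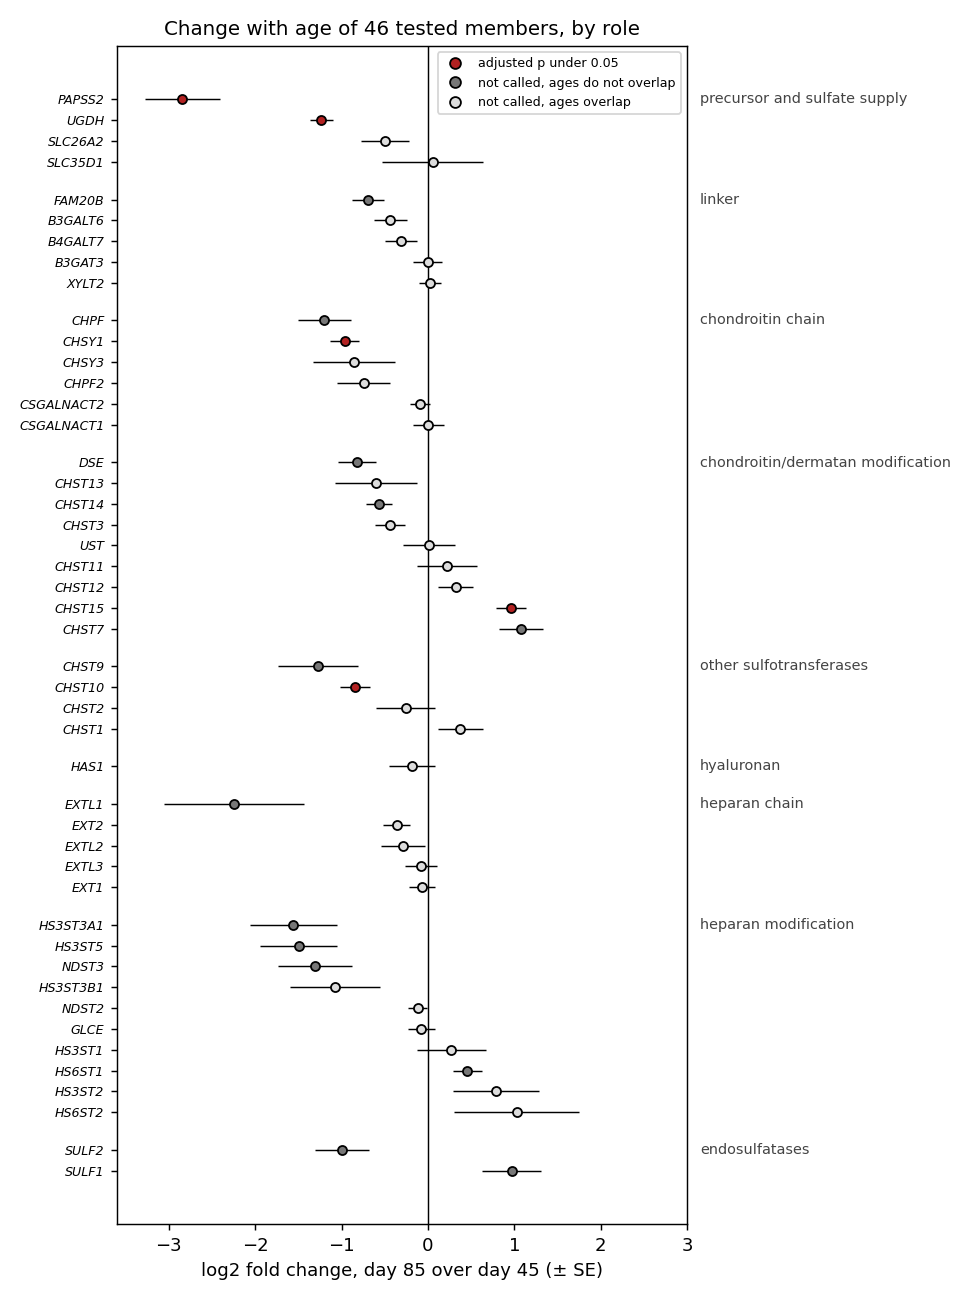
Each point is the log2 fold change (day 85 over day 45) of a tested member, on the horizontal axis, with its standard error as a bar (n = 3 libraries per age), grouped by role. Red points passed an adjusted p of 0.05, dark grey points did not pass although the libraries of the ages did not overlap, and light points overlapped; PAPSS2 lies farthest to the left at -2.84, and CHST15 is the red point on the right.

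The calls rest on few libraries. Without day 85 replicate 2, 16 members fell (34.8%, beside 10% of all genes tested in that fit) and 3 rose (6.52%, beside 12.3%), and all 5 members called with all libraries were among them. Without each of the other 5 libraries in turn, 0 members passed in edgeR in either direction. Few genes of any kind passed in those fits: 0 to 0.611% of all genes tested were higher and 0 to 0.164% lower. With the p left unadjusted and under 0.05, 10 to 14 members were lower and 2 to 5 higher. The lower were 21.7% to 30.4% of the members, beside 8.66% to 11.6% of all genes tested. The higher were 4.35% to 10.9%, beside 9.79% to 13.5%, and lay below that background in each fit. With all 6 libraries, 14 members were lower and 4 higher by DESeq2, 29.2% and 8.33% of the 48 it fitted, beside 8.65% and 10.1% of all genes it fitted; the higher share is thus no larger than that background. Scaling by library totals alone gave 8 members lower and 1 higher; over all genes it gave 437 higher and 598 lower, against 586 and 400 with TMM.

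The first role is supply of the activated sugars and of sulfate. PAPSS2 makes PAPS from ATP and inorganic sulfate and is the PAPS synthase that cartilage depends on. The table places it at 108701140 to 108789588 of chromosome 14; the sources used here do not give the genome build. PAPSS2 stood at 472, 365 and 385 CPM at day 45 and at 30.5, 95.2 and 44.5 CPM at day 85. No day 85 library came near the day 45 range, and replicate 2 was the highest of them. PAPSS2 fell from a mean of 407 ± 57.1 to one of 56.7 ± 34.0 CPM (± SD, n = 3 per age), 7.18-fold (log2 fold change -2.84, SE 0.44, adjusted p = 0.0270). On the FPKM scale it ranked second among the 49 members at day 45 (84.9) and 24th at day 85 (11.4). Its share of the members' summed FPKM was between 7.31% and 9.96% at day 45 and between 1.08% and 2.32% at day 85. Without day 85 replicate 2 the log2 fold change was -3.44 (adjusted p = 0.000750), and without each of the other libraries the adjusted p ran from 0.0589 to 0.117. The summed chondrocyte markers moved the same way between the ages, and both they and PAPSS2 were highest at day 85 in replicate 2. Among these markers ACAN was an exception, at 947 CPM in replicate 2 and 990 CPM in replicate 3. The part of the chondrocyte markers in the fall of PAPSS2 was not tested.

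UGDH oxidises UDP-glucose to UDP-glucuronic acid, a building block of chondroitin, heparan and hyaluronan chains alike, and is placed at 32340295 to 32367679 of chromosome 8. It stood at 115, 102 and 116 CPM at day 45 and at 42.6, 54.0 and 45.0 CPM at day 85. The day 85 libraries were close to each other and all below day 45. UGDH fell from a mean of 111 ± 8.19 to one of 47.2 ± 6.001 CPM, 2.35-fold (log2 fold change -1.23, SE 0.14, adjusted p = 0.0160). Its adjusted p was 0.00189 without day 85 replicate 2, and 0.0502 to 0.109 when any other library was left out.

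The sulfate transporter SLC26A2 was low in both ages, at 3.80, 4.69 and 4.51 CPM and then at 2.16, 3.999 and 3.03 CPM, and its ages overlapped (log2 fold change -0.49, SE 0.28, adjusted p = 0.284). Its row overlaps the position of PDGFRB, which had 13032 counts over the 6 libraries against 330 for SLC26A2, and the sources used here do not say whether counting used strand. The row of SLC35D1, which carries UDP-sugars into the endoplasmic reticulum, was at 0.696, 3.87 and 1.32 CPM at day 85 around a day 45 mean of 1.90 (adjusted p = 0.962). So the called falls within this role were those of the 2 abundant enzymes, and the transporters' rows held few counts.

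**Figure D2:**
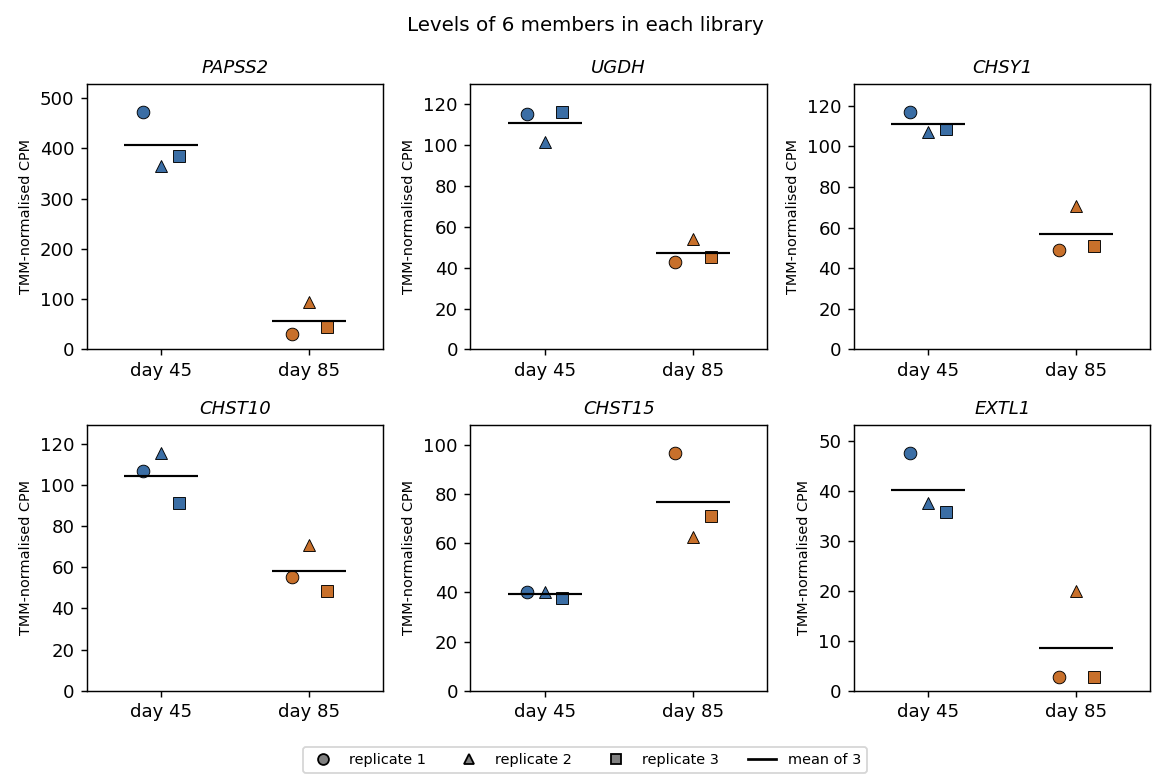
The vertical axes give TMM-normalised CPM in each of the 6 libraries for the 5 called members and for EXTL1, with the marker shape for the replicate number and a line at the mean of the 3 libraries. In all 6 panels the libraries of the ages do not overlap, and day 85 replicate 2 (triangle) is the day 85 library nearest to day 45 in each.

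None of the linker enzymes passed the test. XYLT2, a xylosyltransferase that starts the linker, averaged 38.7 ± 2.92 and then 39.3 ± 3.43 CPM, a log2 fold change of 0.02 (SE 0.12, adjusted p = 0.923). B3GAT3, which adds the glucuronic acid that completes the linker, was the most abundant linker gene by FPKM, at 59.7 and 58.4 as age means, and first of all members at day 85. Its log2 fold change was -0.00 with an SE of 0.17 (adjusted p = 0.991), and its sign turned under several settings. FAM20B, the kinase that phosphorylates the linker xylose, stood at 32.1, 31.4 and 24.0 CPM and then at 14.8, 21.1 and 18.1 CPM. Its ages did not overlap, and it did not pass (log2 fold change -0.69, SE 0.19, adjusted p = 0.0710). The galactosyltransferases B3GALT6 and B4GALT7 had log2 fold changes of -0.43 and -0.32 (adjusted p = 0.184 and 0.296); the position of B4GALT7 overlaps RMND5B. In this role 0 of 5 members passed in edgeR and in limma-voom, 1 was lower at an unadjusted p under 0.05, and DESeq2 called 1 lower. The counts of each role stand beside 2.66% lower and 3.9% higher of all genes tested in edgeR. At an unadjusted p under 0.05 these shares were 13.3% and 15.8%, and in DESeq2 8.65% and 10.1%. With so few genes per role, the counts are descriptions and not a result about a role.

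Of the genes that build chondroitin chains, CHSY1 alone passed the test in edgeR. CHSY1, a chondroitin synthase with both polymerising activities (chromosome 1, 155959954 to 156033821), stood at 117, 107 and 109 CPM at day 45 and at 49.2, 70.7 and 50.8 CPM at day 85. All day 85 libraries were below all day 45 libraries, with replicate 2 the highest of the later age. CHSY1 fell from a mean of 111 ± 5.14 to one of 56.9 ± 12.01 CPM, 1.95-fold (log2 fold change -0.96, SE 0.17, adjusted p = 0.0297). Its adjusted p was 0.00219 without day 85 replicate 2, and 0.0707 to 0.126 when any other library was left out.

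CHPF, the polymerising factor that works in complex with the synthases, was the most abundant member of all at day 45, at 99.3 FPKM. It stood at 284, 388 and 248 CPM at day 45 and at 82.25, 179 and 140 CPM at day 85. The ages did not overlap, but the libraries of each age were widely spread and CHPF did not pass (log2 fold change -1.20, SE 0.31, adjusted p = 0.0666). It passed without day 85 replicate 2 (log2 fold change -1.46, adjusted p = 0.0192). Its relative CHPF2 had a log2 value of -0.74 (SE 0.31) and an adjusted p of 0.169, and replicate 2 of day 85, at 164 CPM, lay within the day 45 range of 156 to 217 CPM. CHSY3, the low synthase gene of the set, was at 3.80, 3.10 and 4.45 CPM and then at 0.773, 3.27 and 2.18 CPM, with overlapping ages (adjusted p = 0.276). In this role 1 of 6 members fell in edgeR, 3 were lower with the p left unadjusted and under 0.05, and DESeq2 called 3 lower. The first 2 counts are 16.7% and 50% of the role, beside 2.66% and 13.3% of all genes tested.

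CSGALNACT1, which adds the first N-acetylgalactosamine and so commits the linker to chondroitin, was at 49.0, 56.1 and 59.5 CPM at day 45 and at 56.0, 66.0 and 42.8 CPM at day 85, a log2 fold change of 0.00 (SE 0.18, adjusted p = 0.995). The sign of this value turned under most settings. CSGALNACT2 was at 46.5 ± 3.67 and 43.7 ± 2.36 CPM (log2 fold change -0.09, SE 0.12, adjusted p = 0.636). Within each library the FPKM of CHSY1 was between 1.88 and 2.44 times that of CSGALNACT1 at day 45, and between 0.899 and 1.22 times at day 85. The ratio did not overlap between the ages, and being taken within a library it does not depend on the scaling. With 3 libraries against 3, an exact permutation test cannot go below 0.1, so ratios are given without a test. The pairs were chosen after the values were seen, except those of CHST11 with CHST3 and with CHST14.

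**Figure D3:**
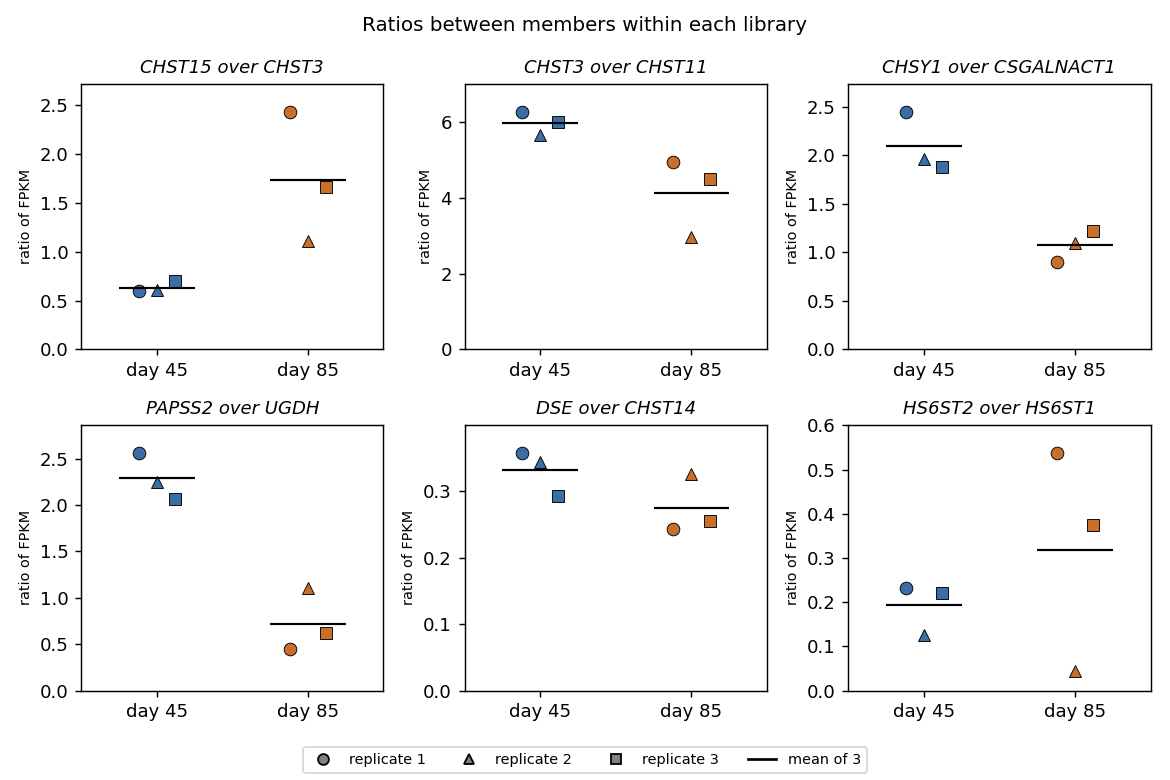
The vertical axes give the ratio of the deposited FPKM of 2 members within each library, for 6 pairs, with the marker shape for the replicate number and a line at the mean of 3. CHST15 over CHST3 rises from at most 0.695 in the day 45 libraries to at least 1.11 in the day 85 libraries, CHSY1 over CSGALNACT1 and PAPSS2 over UGDH fall without overlap, and the bottom right pair overlaps because day 85 replicate 2 is at 0.0455.

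Among the enzymes that sulfate or epimerise chondroitin and dermatan chains, CHST15 alone passed the test in edgeR. CHST15 adds a second sulfate to N-acetylgalactosamine that already carries one at the 4 position, which gives the chondroitin sulfate E unit; its gene is placed at 145096700 to 145179039 of chromosome 14. It stood at 40.3, 40.0 and 37.7 CPM at day 45 and at 96.6, 62.6 and 70.9 CPM at day 85. The day 45 libraries were nearly equal, and every day 85 library was above them. CHST15 rose from a mean of 39.3 ± 1.42 to one of 76.7 ± 17.7 CPM, 1.95-fold (log2 fold change 0.96, SE 0.18, adjusted p = 0.0344). Its adjusted p was 0.00525 without day 85 replicate 2, and 0.0660 to 0.152 when any other library was left out. CHST7, a chondroitin 6-sulfotransferase gene on the X chromosome, stood at 10.6, 9.23 and 11.97 CPM and then at 31.1, 17.1 and 19.2 CPM. Its ages did not overlap either, and it lay just outside the threshold (log2 fold change 1.08, SE 0.26, adjusted p = 0.0544). Its position overlaps SLC9A7, with 499 counts in all against 1433.

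The major cartilage 6-sulfotransferase, CHST3, had a small negative value. It stood at 205, 198 and 163 CPM and then at 120, 170 and 129 CPM, so that replicate 2 of day 85 lay within the day 45 range (log2 fold change -0.43, SE 0.17, adjusted p = 0.155). The 4-sulfotransferase CHST11 was at 6.67, 7.14 and 5.56 CPM at day 45 and at 4.95, 11.7 and 5.87 CPM at day 85. Its log2 fold change was 0.22 with an SE of 0.35 (adjusted p = 0.703) and turned to -0.25 without day 85 replicate 2. CHST12 and CHST13, the other 4-sulfotransferases of chondroitin, had log2 fold changes of 0.32 and -0.60 (adjusted p = 0.327 and 0.442). By FPKM, CHST13 averaged 44.4 at day 45 and CHST11 4.15, so CHST13 held the larger share of these rows at that age. CHST13 itself was uneven at day 45, at 104, 99.2 and 40.5 CPM.

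CHST3 exceeded CHST11 by 5.67 to 6.27 times in FPKM at day 45 and by 2.97 to 4.95 times at day 85. CHST14 exceeded CHST11 by 13.2 to 16.8 times and then by 5.995 to 11.8 times. Both ratios were lowest in day 85 replicate 2 and did not overlap between the ages. CHST15 over CHST3 was 0.593, 0.608 and 0.695 at day 45 and 2.43, 1.11 and 1.66 at day 85.

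The pair that makes dermatan sulfate did not pass. DSE, the epimerase that turns glucuronic into iduronic acid, stood at 74.5, 84.7 and 64.6 CPM and then at 30.5, 54.2 and 42.0 CPM (log2 fold change -0.82, SE 0.22, adjusted p = 0.0721). CHST14, the dermatan 4-sulfotransferase, stood at 63.7, 75.1 and 67.5 CPM and then at 38.3, 50.9 and 50.2 CPM (log2 fold change -0.57, SE 0.15, adjusted p = 0.0677). In both genes the ages did not overlap, and both fell without day 85 replicate 2 (adjusted p = 0.0107 and 0.0284). The ratio of DSE to CHST14 overlapped between the ages, at 0.292 to 0.357 and 0.242 to 0.325. UST, which sulfates the 2 position of the uronic acid, was at 49.8 ± 16.5 and 50.1 ± 13.7 CPM (log2 fold change 0.01, SE 0.30, adjusted p = 0.984). In this role 1 of 9 members rose and 0 fell in edgeR, with 3 lower and 2 higher at an unadjusted p under 0.05, and DESeq2 called 3 lower and 2 higher.

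The remaining carbohydrate sulfotransferases act on keratan sulfate and other sugars. CHST10, which sulfates glucuronic acid in the HNK-1 epitope of glycoproteins (chromosome 3, 56449363 to 56485211), stood at 107, 115 and 91.2 CPM and then at 55.2, 70.9 and 48.7 CPM. All day 85 libraries were below all day 45 libraries. CHST10 fell from a mean of 104 ± 12.3 to one of 58.3 ± 11.4 CPM, 1.79-fold (log2 fold change -0.84, SE 0.17, adjusted p = 0.0428). Its adjusted p was 0.00529 without day 85 replicate 2, and 0.0768 to 0.149 when any other library was left out. CHST2, an N-acetylglucosamine 6-sulfotransferase, was the most abundant gene of this role by FPKM. It was at 76.1, 70.5 and 85.1 CPM and then at 37.5, 100 and 55.9 CPM, so the day 85 libraries lay on both sides of the earlier age (adjusted p = 0.647). CHST1, the keratan sulfate galactose 6-sulfotransferase, was at 18.3 ± 6.52 and 23.7 ± 2.32 CPM, with an adjusted p of 0.369. CHST9 was at 2.57, 1.23 and 0.916 CPM and then at 0.618, 0.733 and 0.593 CPM, without overlap and without passing (adjusted p = 0.133). CHST4 had no count in any library, and CHST8 had 24 counts in all at day 45 and 20 at day 85; neither was tested.

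Of the hyaluronan synthases, HAS1 carried its own name in the table and stood at 3.00, 2.74 and 2.22 CPM and then at 2.16, 1.93 and 2.90 CPM, with overlapping ages (adjusted p = 0.680). HAS2, the main synthase of mesenchyme, is listed under the name SHAS2 and was matched by its gene ID, so it is outside the rule. It was higher than HAS1, at 17.6, 16.4 and 18.1 CPM and then at 9.12, 19.0 and 14.7 CPM, also with overlapping ages (log2 fold change -0.28, SE 0.26, adjusted p = 0.509).

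Other rows of these enzymes also carry no name in the table and were matched by ID. XYLT1, the other xylosyltransferase, was at 7.96, 6.64 and 7.39 CPM and then at 2.47, 6.07 and 5.08 CPM, without overlap (log2 fold change -0.69, SE 0.33, adjusted p = 0.221). HS2ST1, which sulfates the 2 position of iduronic acid in heparan sulfate, was at 75.1 ± 7.64 and 90.3 ± 36.3 CPM, with an adjusted p of 0.547. PAPSS1 and NDST1 were not analysed here.

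Of the genes that build heparan sulfate chains, EXT1 and EXT2, the copolymerase subunits, were abundant at both ages. EXT1 was at 61.3, 59.0 and 52.4 CPM and then at 54.7, 63.7 and 46.5 CPM, with overlapping ages (log2 fold change -0.07, SE 0.15, adjusted p = 0.795). EXT2 stood at 172, 191 and 193 CPM and then at 121, 173 and 140 CPM (log2 fold change -0.36, SE 0.16, adjusted p = 0.184). Replicate 2 of day 85 thus lay just above the lowest day 45 library of EXT2. EXTL2 and EXTL3, which add the first N-acetylglucosamine or control that step, had log2 fold changes of -0.28 and -0.08 (adjusted p = 0.490 and 0.804).

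EXTL1, an exostosin-like N-acetylglucosaminyltransferase, differed most between libraries. It stood at 47.5, 37.5 and 35.8 CPM at day 45 and at 2.78, 19.9 and 2.70 CPM at day 85. Every day 85 library was below the earlier age, yet replicate 2 held several times the level of the others. The log2 fold change was -2.24 with an SE of 0.81, and EXTL1 did not pass (adjusted p = 0.137). Without day 85 replicate 2 it was -3.87 (adjusted p = 0.000321), larger in size than that of PAPSS2 in the same fit. Its order over the day 85 libraries was near that of COL2A1, which was also highest in replicate 2. The part of the chondrocyte content in this difference was not tested. In this role 0 of 5 members passed in edgeR and DESeq2, and 1 was lower at an unadjusted p under 0.05.

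Modification of heparan sulfate showed 0 calls of 10 tested genes in edgeR, with 3 lower and 1 higher at an unadjusted p under 0.05. These are 30% and 10%, beside 13.3% and 15.8% of all genes tested, so the share higher lies below the background. DESeq2 called 3 lower and 1 higher. NDST2, a deacetylase and N-sulfotransferase, was at 69.3 ± 3.02 and 63.7 ± 5.24 CPM, with an adjusted p of 0.511, with a position that overlaps the more abundant ZSWIM8. GLCE, the epimerase of heparan chains, was at 55.1 ± 5.88 and 52.3 ± 7.71 CPM, with an adjusted p of 0.770. HS6ST1, the 6-O-sulfotransferase with the highest FPKM of the role, stood at 76.9, 83.7 and 93.8 CPM and then at 93.9, 138 and 116 CPM. In CPM its ages touched without overlapping (log2 fold change 0.45, SE 0.17, adjusted p = 0.137). In FPKM they overlapped, with day 45 replicate 3 at 22.6 and day 85 replicate 1 at 21.7. Its place among the members higher without overlap thus depends on the scaling.

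HS6ST2, a second 6-O-sulfotransferase, was unlike the other members at day 85. It stood at 24.3, 14.2 and 28.1 CPM at day 45 and at 68.3, 8.53 and 58.9 CPM at day 85. Replicates 1 and 3 were above the earlier age and replicate 2 below it (log2 fold change 1.03, SE 0.72, adjusted p = 0.383). Without replicate 2 the log2 fold change was 1.51 (adjusted p = 0.0156). Skeletal muscle markers had the same order over the day 85 libraries, with ACTA1, the actin of muscle fibres, at 8543, 714 and 7325 CPM. Their part in the HS6ST2 values was not tested. The ratio of HS6ST2 to HS6ST1 in FPKM was 0.125 to 0.233 at day 45 and 0.537, 0.0455 and 0.374 at day 85.

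None of the 3-O-sulfotransferases passed, nor did NDST3. HS3ST3A1, which makes the 3-O-sulfated unit of the herpes entry receptor type, stood at 31.0, 42.3 and 35.6 CPM and then at 4.25, 19.6 and 12.99 CPM. The ages did not overlap, and the day 85 libraries were widely spread (log2 fold change -1.56, SE 0.50, adjusted p = 0.111). HS3ST5 was at 1.96, 3.90 and 1.64 CPM and then at 0.618, 1.2 and 0.791 CPM, with an adjusted p of 0.0891. NDST3 was at 2.39, 1.15 and 3.14 CPM and then at 0.696, 0.9998 and 0.989 CPM, with an adjusted p of 0.107. Neither of these 2 genes overlapped between the ages, and at about 1 CPM each day 85 value rests on few counts. HS3ST3B1, HS3ST1 and HS3ST2 had overlapping ages, with log2 fold changes of -1.07, 0.27 and 0.79 (adjusted p = 0.225, 0.683 and 0.331). HS6ST3 had 8 counts in all at day 45 and 1 at day 85 and was not tested.

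The extracellular endosulfatases, which remove 6-O-sulfate from finished heparan chains, had log2 fold changes of opposite sign. SULF1 stood at 7.96, 9.02 and 19.1 CPM at day 45 and at 21.3, 25.7 and 23.7 CPM at day 85, a log2 fold change of 0.97 (SE 0.34, adjusted p = 0.124). SULF2 stood at 21.1, 28.7 and 48.8 CPM and then at 15.5, 14.6 and 19.2 CPM (log2 fold change -0.999, SE 0.31, adjusted p = 0.0986). In both genes the ages did not overlap and day 45 replicate 3 was the highest library of its age. A second row that the gene ID table names SULF2, outside the rule, was at 37.4, 54.0 and 76.6 CPM and then at 24.2, 23.8 and 27.6 CPM. That row fell 2.22-fold (log2 fold change -1.15, SE 0.26, adjusted p = 0.0483), so counts of this gene are split over 2 rows. The call was near the threshold: the adjusted p was 0.0635 with limma-voom, 0.0613 with limma-trend, 0.0551 with library totals alone, and 0.0901 to 0.144 when any library but day 85 replicate 2 was left out. In the role, 0 of 2 members passed in edgeR, 1 was lower and 1 higher at an unadjusted p under 0.05, and DESeq2 called 1 of each.

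The summed FPKM of all 49 members went from between 967 and 998.8 per library at day 45 to between 601 and 793 at day 85. In 3 roles the sums did not overlap between the ages. Supply went from between 112 and 139 to between 23.6 and 43.0, chondroitin chain building from between 198 and 239 to between 87.1 and 146, and heparan chain building from between 106 and 120 to between 76.3 and 98.4. Sums of linker genes (116 to 141 and then 106 to 124), of chondroitin modification (177 to 226 and then 158 to 196) and of heparan modification (59.5 to 75.8 and then 65.6 to 69.2) overlapped. Most of the supply sum came from PAPSS2 and UGDH. The heparan chain sums of the ages would overlap without EXTL1. That gene was at 16.0, 12.4 and 13.1 FPKM at day 45 and at 0.980, 6.37 and 0.916 FPKM at day 85. All these sums are descriptions on the scale of library totals and carry no test.

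**Figure D4:**
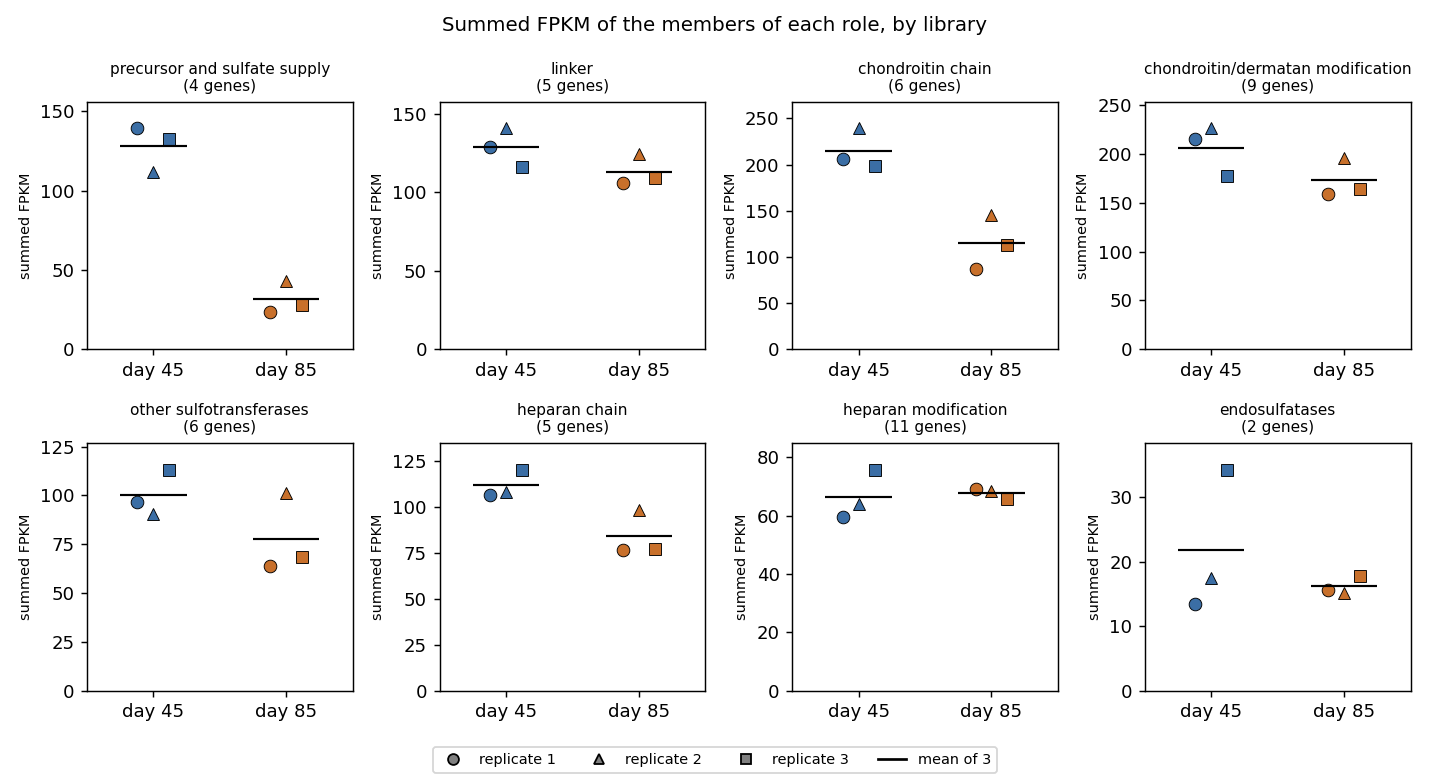
Each panel gives the summed deposited FPKM of the members of a role in each library on the vertical axis, with the marker shape for the replicate number and a line at the mean of the 3 libraries. The panels for supply, chondroitin chain and heparan chain separate the ages, those for the linker, the modifying enzymes, other sulfotransferases and endosulfatases overlap, and HAS1 alone makes up hyaluronan and is not drawn.

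Most members were higher in day 85 replicate 2 than in replicates 1 and 3. This held for 40 of 46 tested members (87.0%), beside 44.4% of all genes tested, and the 5 members where replicate 2 was lowest were CHST15, CHST7, HAS1, HS6ST2 and SULF2. Of the 46, day 85 replicate 1 lay below the whole day 45 range in 31, replicate 3 in 28 and replicate 2 in 16. Replicate 2 lay above that range in 15 members and replicates 1 and 3 in 6 each. The same counts were not made over all genes tested, so they are not read as particular to these members, and nothing further is drawn from them. Day 85 replicate 2 was highest of its age in summed chondrocyte markers. Its summed osteoblast, osteoclast, macrophage, blood, and neural and glial markers were also the highest of its age. COL1A2 alone held 64395 of the 81590 CPM of its osteoblast sum. Within these lists BGLAP was lowest in replicate 2, and C1QA, C1QB and C1QC were highest in replicate 1. The sums of skeletal muscle, endothelial and mast cell markers were lowest in replicate 2. Of their genes, VWF was lowest in replicate 3, and MS4A2 was highest in replicate 2. Neural and glial markers summed to 83.3, 1830 and 61.1 CPM in day 85 replicates 1, 2 and 3, and macrophage markers to 322.5, 761 and 249.6 CPM. Whether the difference between the ages is one of cartilage content or of other tissue was not tested.

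**Figure D5:**
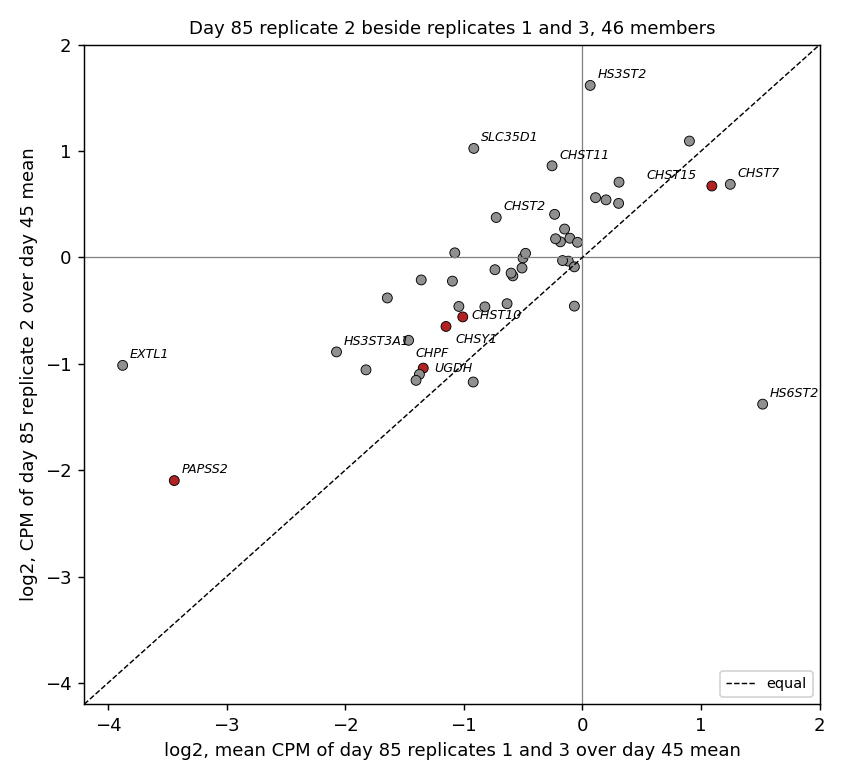
Each point is a tested member: the horizontal axis gives the log2 ratio of the mean CPM of day 85 replicates 1 and 3 to the day 45 mean, the vertical axis the same for replicate 2, and the dashed line marks equal values. Points above the line were less reduced, or more raised, in replicate 2; PAPSS2 and UGDH (red, called) are below 0 on both axes, and HS6ST2 is far below the line.

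Other genes of the pathway were taken from lists by function. Of 14 tested genes that supply sugars and sulfate carriers or trim the linker, 4 fell and 0 rose in edgeR, 7 were lower and 0 higher before adjustment (p under 0.05), and the median log2 fold change was -0.50. These are 28.6% lower called and 50% lower before adjustment, beside 2.66% and 13.3% of all genes tested. The 0 higher stand beside 3.9% called and 15.8% before adjustment. GFPT2 and GFPT1, which start hexosamine synthesis, fell 2.35-fold and 1.71-fold (adjusted p = 0.0290 and 0.0444). GFPT2 stood at 69.0, 61.5 and 67.1 CPM and then at 21.5, 25.5 and 37.1 CPM. IMPAD1, the Golgi phosphatase that clears the by-product of sulfation, fell 1.83-fold from 60.5, 63.2 and 60.7 CPM to 28.1, 41.4 and 31.3 CPM, with an adjusted p of 0.0362. Without day 85 replicate 2, 7 of these genes fell and 1 rose, while leaving out any other single library left 0 or 1 lower. Over all genes tested in the fit without day 85 replicate 2, 10% fell and 12.3% rose. In the fits without any other library, at most 0.164% of all genes fell and 0.611% rose.

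Of 19 tested genes that break the chains down or activate those enzymes, 0 passed in either direction in edgeR, 4 were higher and 0 lower before adjustment (p under 0.05), and DESeq2 called 3 higher and 0 lower. Their median log2 fold change was 0.28. The 21.1% higher before adjustment stand beside 15.8% of all genes tested, and DESeq2 called 10.1% of all genes higher. The counts of genes higher are thus near the background. The 0 lower before adjustment stand beside 13.3% of all genes tested. In 16 of the 19 (84.2%) the log2 fold change was positive, beside 51.8% of all genes tested.

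Of 27 tested core proteins that carry the chains or bind them, 3 fell and 1 rose, and 12 were lower and 4 higher before adjustment (p under 0.05); the median log2 value was -0.28. The shares lower, 11.1% called and 44.4% before adjustment, stand beside 2.66% and 13.3% of all genes tested, and the shares higher, 3.70% and 14.8%, beside 3.9% and 15.8%. KERA, a small keratan sulfate proteoglycan, fell 4.83-fold (adjusted p = 0.0405), the pericyte and progenitor proteoglycan CSPG4 2.04-fold (adjusted p = 0.0491) and the heparan sulfate proteoglycan AGRN 1.75-fold (adjusted p = 0.0465). HSPG2, which encodes perlecan of basement membranes and cartilage, rose 2.04-fold from 598, 524 and 754 CPM to 1020, 1410 and 1398 CPM, with an adjusted p of 0.0398. ACAN, the main carrier of chondroitin sulfate in cartilage, stood at 2696, 2832 and 2167 CPM and then at 233, 947 and 990 CPM, without overlap and without passing (adjusted p = 0.0865). Without day 85 replicate 2, 9 core proteins fell and 1 rose, while leaving out any other single library gave 0 in both directions. In the fit without day 85 replicate 2, 10% of all genes tested fell and 12.3% rose. Without any other library, at most 0.164% of all genes tested fell and 0.611% rose.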

How the data were processed

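The authors deposited 1 table with whole-number read counts and FPKM per gene for 6 libraries, per the file headers; HISAT2 is named, without a version, in the submitters' processing notes. Ribosomal RNA was removed and the second cDNA strand degraded, per the labels' protocols. The sources used here give no counting program, strand setting or genome build. For 10748 genes with at least 50 counts in every library, the deposited FPKM equalled the count over the library total times a factor per gene, within 0.00123%.

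Ages were compared on these counts by the quasi-likelihood test of edgeR 4.0.16 (R 4.3.3), with TMM scaling, robust dispersions, the filterByExpr filter at a minimum count of 10, and no factor beside age. Benjamini-Hochberg adjustment ran over all 15022 genes, and an adjusted p under 0.05 was called. The SE is the log2 fold change divided by the square root of F. Alternatives were other scalings and filters, DESeq2 1.42.0, limma 3.58.1 (voom, and trend on log2(FPKM + 1)), a replicate block and leaving out each library. No libraries were duplicates (chi-square per degree of freedom of 20.2 or more).

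Genes named were members called, members with an unadjusted p under 0.05 and no overlap, 16 anchor genes and the most abundant of each role; others were added to describe each role. The members and lists were chosen with earlier results of these data known. Gene names came from the table, or by gene ID from a table of symbols for other genes. Some genes of the other pathway lists are not reported by name here.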

Additional observations from a re-analysis of the deposited data

How the results depend on the processing

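All 5 called members kept the call and direction under the 9 settings that used all libraries. In the 5 fits that left out a library other than day 85 replicate 2, all kept the direction and none kept the call. Over all genes, 586 were higher and 400 lower. DESeq2 gave 2064 and 1770, and limma-trend on FPKM 614 lower. Leaving out day 85 replicate 2 gave 1884 higher and 1528 lower, and leaving out any other library 0 to 93 and 0 to 25. Members called were 1 higher and 4 lower; DESeq2 gave 4 and 14, library totals alone 8 lower, limma-trend on FPKM 8 lower, and leaving out a library 0 to 3 higher and 0 to 16 lower. In the list of other synthesis genes, leaving out a library gave 0 to 1 higher and 0 to 7 lower, from 0 and 4. In the breakdown list, 0 higher became 3 with DESeq2, 1 with the filter of 1 CPM in 3 libraries, and 0 to 1 when a library was left out. Among core proteins, 1 higher and 3 lower became 4 and 12 with DESeq2, 5 lower with library totals alone and with limma-trend on FPKM, and 0 to 1 higher and 0 to 9 lower when a library was left out. The cause of these shifts was not tested. Signs turned in 4 of the 29 tested members that the naming rules picked, none called. They also turned in SLC35D1, XYLT2, UST, EXTL3 and GLCE, which were added to describe their roles. SLC35D1 (0.06) was -0.207 with the replicate block and -0.891 without day 85 replicate 2. B3GAT3 (-0.00) was 0.007 with limma-voom, 0.007 with the replicate block and -0.146 to 0.118 when a library was left out. CSGALNACT1 (0.00) was -0.002 with RLE, -0.030 with upper-quartile scaling, -0.045 with library totals alone, -0.027 without a filter, -0.007 with DESeq2, -0.016 with limma-voom, -0.045 with limma-trend on FPKM and -0.014 with the replicate block. It was -0.151 to 0.155 when a library was left out. CHST11 was -0.252 to 0.416 and EXT1 -0.186 to 0.042 when a library was left out.

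The titles share replicate numbers between the ages. Deviations of same-numbered libraries correlated at 0.0128, 0.25 and 0.0404, and 1 of 3 day 85 libraries correlated best with its own number, so the numbers were not taken as pairs. With the replicate block, 465 genes were higher and 217 lower, members called were 1 higher and 5 lower, 0 core proteins rose and 2 fell, and 3 other synthesis genes fell; HSPG2, AGRN and GFPT1 lost their calls (adjusted p = 0.0544, 0.0582 and 0.0593 in edgeR), as did the second SULF2 row (0.0511). Levels near 1 CPM rest on few counts, which limits HS3ST5, NDST3 and CHST9.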
